A study of Mus musculus with 6 samples.

Results

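The axon guidance ligands and receptors examined here are 60 of the 18193 mouse genes that the array measured through probe sets with a single gene symbol. They were chosen by a rule on symbols, as the Eph receptors, ephrins, semaphorins of classes 3 to 7, plexins, neuropilins, Robo receptors and Slit ligands with such a probe set. They were represented by 137 probe sets. Ephb2 had no probe set with a single symbol and is not among them. Plxna4os1, 1 of the 60, is an antisense transcript whose symbol meets the naming rule and is not a plexin. The study asked which mRNAs change in mouse embryonic stem cells (mESCs) when Dicer, the enzyme that releases mature miRNAs from their precursors, is deleted.

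In the Dcr KO group, Dicerflox/flox mESCs had received GFP together with Cre recombinase, which removes the floxed segment. In the Dcr WT group, the same floxed cells had received GFP alone. RNA was profiled in both groups 5 days after transfection, on 3 arrays per group, which the methods call biological triplicates. The Dcr KO cells were a polyclonal population rather than a picked clone, and culture on gelatin with serum and LIF was common to both groups. No group received Cre without floxed Dcr, so an effect of Cre itself and that of the deletion cannot be told apart. These were bulk samples, so a change in the share of cells of a type and a change in RNA per cell cannot be told apart either.

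Guidance ligands are secreted or membrane-bound cues that steer growing axons and migrating cells, mostly by turning the cytoskeleton of the receiving cell. Slit proteins are secreted and repel cells that carry Robo receptors. Ephrins are tethered to the membrane and signal on contact through Eph receptor tyrosine kinases, and the ephrin-bearing cell can receive a signal in return. Semaphorins act through plexins, and secreted class 3 semaphorins mostly need a neuropilin as co-receptor. All these families also act outside the nervous system, in vessel growth, epithelia and early embryos.

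The miRNAs that mESCs lose with Dicer are dominated by the mir-295 cluster, whose members share the hexamer AAGUGC at bases 2 to 7. The mature sequences below are shown because the study chose its predicted targets, some guidance genes among them, through this seed. They were taken from RefSeq with coordinates of GRCm38.p6 on the plus strand, are written 5′ to 3′, and have the seed (bases 2 to 8) in capitals. No miRNA was measured on these arrays.
miR-290a-3p, chr7:3218674-3218697: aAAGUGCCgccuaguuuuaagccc
miR-291a-3p, chr7:3218968-3218989: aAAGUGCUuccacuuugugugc
miR-291b-3p, chr7:3219529-3219550: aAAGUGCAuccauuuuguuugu
miR-294-3p, chr7:3220691-3220712: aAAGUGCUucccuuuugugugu
miR-295-3p, chr7:3220815-3220837: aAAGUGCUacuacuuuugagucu
The cluster also includes miR-292-3p. Among the 5 sequences shown, miR-291a-3p, miR-294-3p and miR-295-3p share the full seed AAGUGCU, while miR-290a-3p has AAGUGCC and miR-291b-3p has AAGUGCA. The study's list of predicted targets holds 5 of the 60 guidance genes, which are Epha2, Epha4, Nrp2, Sema3c and Sema4b. That list was drawn up partly on these arrays, so the direction in which its genes moved is not independent evidence.

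In the RefSeq table, 7 of the guidance genes also contain a miRNA hairpin on their own strand. Slit2 holds the hairpin Mir218-1 and Slit3 holds Mir218-2. The mature miRNA of both is shown because its host Slit2 is the member with the clearest difference below, and its seed is again in capitals.
miR-218-5p, chr5:48223966-48223986: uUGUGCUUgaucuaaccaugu

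Expression values were log2 values from GCRMA, which corrects the background of oligonucleotide arrays and normalizes them, with 1 value per probe set and array. The value of a gene was the mean of its probe sets. A minimum of 4 on the log2 scale, averaged over all 6 arrays, marked what was bright enough to test. The limma model was then fitted across all 8782 genes at the minimum, and a gene was called where its p-value, adjusted over those genes by the Benjamini-Hochberg method, was under 0.05. Single probe sets were fitted in the same way, over the 18789 at the minimum. With 3 arrays against 3, an exact permutation test of 1 gene cannot go below a two-sided p of 0.1, and the calls for single genes rest on limma.

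The brighter Dicer1 probe set fell to 27.9% of its Dcr WT level in Dcr KO (adjusted p = 0.0138 over probe sets, limma). The dimmer was at 56.5% and did not pass (adjusted p = 0.0908), although its arrays did not overlap either. All 10 markers of embryonic stem cells were at the minimum and 0 of them passed the test (limma; before adjustment, 3 were higher and 2 lower with p under 0.05), with mean log2 levels of 10.48 to 10.51 on the Dcr KO arrays and 10.29 to 10.49 on the Dcr WT arrays. Of 9 neural markers, 5 lay under the minimum on every array, namely Pax6, Sox1, Neurog2, Dcx and Map2. Among them Pax6, Sox1 and Map2 lay wholly above in Dcr KO, by 0.58, 0.89 and 0.21. Neurog2 at -0.03 and Dcx at 0.11 overlapped. Neurod1 and Tubb3 passed the test, at 0.82 and 0.73 higher in Dcr KO on the log2 scale (adjusted p = 0.0296 and 0.0100, limma). Stmn2 and Nes, also tested, differed by -0.13 and -0.07 and did not pass. The mean log2 level of the neural markers separated the groups, at 4.89 to 4.99 on the Dcr KO arrays and 4.56 to 4.60 on the Dcr WT arrays. Their summed linear signal, dominated by Stmn2, overlapped, at 3015 to 3414 on the Dcr KO arrays and 2988 to 3258 on the Dcr WT arrays. Among 7 endothelial markers only Tek was at the minimum, and it was 1.55 higher in Dcr KO (adjusted p = 0.00492, limma). The other 6 lay under the minimum on every array. Kdr lay wholly above in Dcr KO, by 0.74, with Dcr KO replicate 3 far above the other arrays. Cdh5 at 0.01, Tie1 at -0.16, Emcn at 0.11, Esam at 0.25 and Vwf at 0.80 overlapped. The summed endothelial signal, dominated by Tek, was 144 to 187 on the Dcr KO arrays and 66.4 to 82.7 on the Dcr WT arrays. Of 7 markers of primitive streak and epiblast, 4 were tested and all had lower means in Dcr KO. Pou3f1 passed, at -0.54 (adjusted p = 0.0428, limma), while Otx2 at -0.92, Mixl1 at -0.64 and Eomes at -0.26 did not. Of the untested, Fgf5 differed by -1.19 without overlap, while Gsc at 0.42 and Mesp1 at -0.06 overlapped. The summed signal of these markers, of which Pou3f1 was the largest part, was 342 to 355 on the Dcr KO arrays and 426 to 592 on the Dcr WT arrays. Of 8 fibroblast markers 2 were tested and 0 passed (0 at an unadjusted p under 0.05). Among the untested, Col3a1, Postn and Dcn lay wholly above in Dcr KO, by 1.22, 0.72 and 0.65. Col1a2 and Thy1 lay wholly below, at -0.71 and -0.62, and Lum overlapped. The summed fibroblast signal was 85.8 to 88.9 on the Dcr KO arrays and 67.1 to 95.6 on the Dcr WT arrays. Of 8 markers of primitive endoderm 7 were under the minimum on every array, and the summed signal was 53.4 to 57.3 on the Dcr KO arrays and 57.5 to 63.6 on the Dcr WT arrays. The markers differed in direction. Amn and Ttr lay wholly below in Dcr KO, at -0.90 and -0.05, and Gata6 lay wholly above, at 0.32. Gata4 at 0.07, Sox17 at 0.13, Foxa2 at 0.01 and Afp at -0.06 overlapped, as did Dab2 at -0.07, which was tested and not called. The part of any of these cell types in the results below was not tested. Over all tested probe sets, pairs of Dcr KO arrays correlated at 0.9826 to 0.9946, pairs of Dcr WT arrays at 0.9772 to 0.9901 and pairs across the groups at 0.9484 to 0.982.

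Most guidance genes gave little signal in these cells. As gene means, 19 of the 60 were at the minimum. They comprised Slit2, Epha2, Ephb3, Ephb4, 4 of 5 ephrin-A ligands, 2 of 3 ephrin-B ligands, 2 of 7 class 3 semaphorins, 3 of 13 semaphorins of classes 4 to 7, Nrp2 and 3 of 9 plexins. None of the 4 Robo receptors was among them. Of the 41 that were not tested, 37 never reached the minimum on any array, and Epha4, Sema6a, Nrp1 and Sema4b did so on at least 1. Averaging dim and bright probe sets kept several genes out, since 31 of the 60 had at least 1 probe set at the minimum. At the level of single probe sets 39 of 137 were tested, and 90 of the other 98 lay under the minimum on all arrays.

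**Figure D1:**
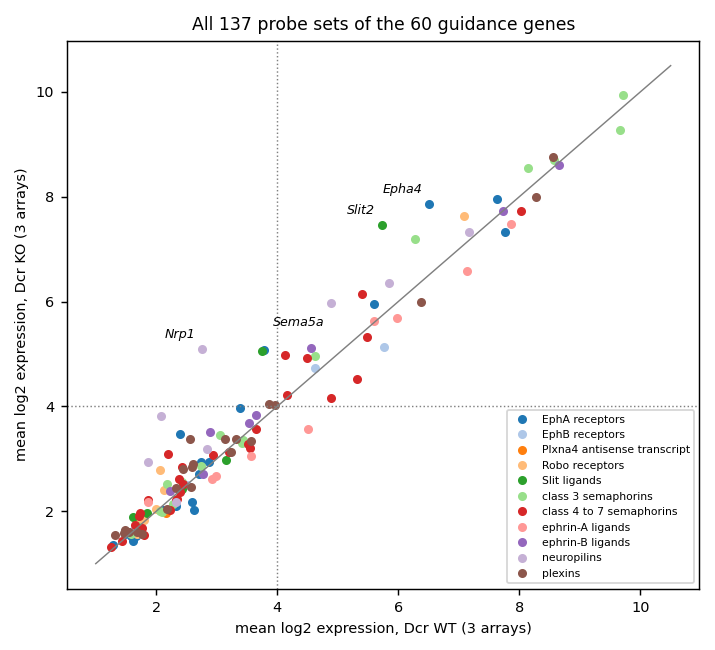
Mean log2 expression of all 137 guidance probe sets in Dcr KO (vertical axis) against Dcr WT (horizontal axis), 1 point per probe set and coloured by family. Dotted lines mark a level of 4, the diagonal marks no difference, and most points sit in the dim corner while Slit2, Epha4, Sema5a and Nrp1 stand above the diagonal.

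Slit2 was the one guidance gene called in the test of gene means. It was higher in Dcr KO, the group through which it reached the minimum. No guidance gene was called lower, and 18 of the 19 tested did not pass. At an unadjusted p under 0.05 there were 2 higher and 4 lower, against 14.7% and 17.3% of all genes. Over all 8782 genes, 6.91% were called higher in Dcr KO and 6.42% were called lower, so 1 higher and 0 lower of 19 is not more than that background. The Dcr KO arrays all lay above the Dcr WT arrays for 2 of the 19, Slit2 and Sema3c, against 17.7% of all genes. They all lay below for 3, Ephb3, Sema4g and Efna3, against 21.2% of all genes. The median log2 difference was 0.09 over the 19 and -0.02 over all genes, with 11 of the 19 positive and 8 negative. With Dcr WT replicate 2 left out Efnb1 was called higher as well, with Dcr KO replicate 1 left out Sema4g was called lower, and with Dcr WT replicate 3 left out Ephb3 was called lower. With Dcr WT replicate 1 left out the median was 0.21.

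The single probe sets gave 4 calls higher in Dcr KO and 0 lower among the 39 tested. They were a pair of Slit2 probe sets, 1 of Epha4 and 1 of Sema5a, against 4.69% of all probe sets called higher and 3.07% called lower. The dimmer of that Slit2 pair averaged 3.75 in Dcr WT, so it reached the minimum through its Dcr KO arrays and had to differ. At an unadjusted p under 0.05, 10 were higher and 3 were lower, against 13.7% and 14.1% of all probe sets. Of those 10, 5 belong to genes on the study's target list, which was drawn up partly on these arrays. A dimmer Epha4 probe set among the 10 averaged 3.78 in Dcr WT, so it too reached the minimum through Dcr KO. The 10 are therefore not read as a result. Leaving out single arrays moved the count called higher to 2 without Dcr KO replicate 1, 2 or 3, to 1 without Dcr WT replicate 1 or 3, and to 7 without Dcr WT replicate 2. The brightest Slit2 probe set was in the count each time. The 7 without Dcr WT replicate 2 added probe sets of Efnb1, Epha7 and Nrp1. That of Nrp1 averaged under the minimum over all 6 arrays and was admitted there through its Dcr KO arrays, so it had to differ.

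When each gene was represented by its brightest probe set, 31 guidance genes could be tested among 9702 genes. Of these, 5 were called higher in Dcr KO, namely Slit2, Epha4, Sema5a, Sema3c and Sema4b, and 0 were called lower, with 4 lower at an unadjusted p under 0.05, against 18.7% of all genes. Over all genes 7.71% were called higher and 8.02% were called lower in that fit. Epha4, Sema3c and Sema4b are on the study's target list, drawn up partly on these arrays, so their rise is not independent evidence. In that fit 5 guidance genes lay wholly above in Dcr KO, against 17.7% of all genes, and 3 lay wholly below, Ephb3, Sema4f and Sema4g, against 22.9% of all genes. The median log2 difference was 0.05 over the 31 and -0.04 over all 9702 genes. Which genes are called therefore turns on how the probe sets of a gene are combined.

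**Figure D2:**
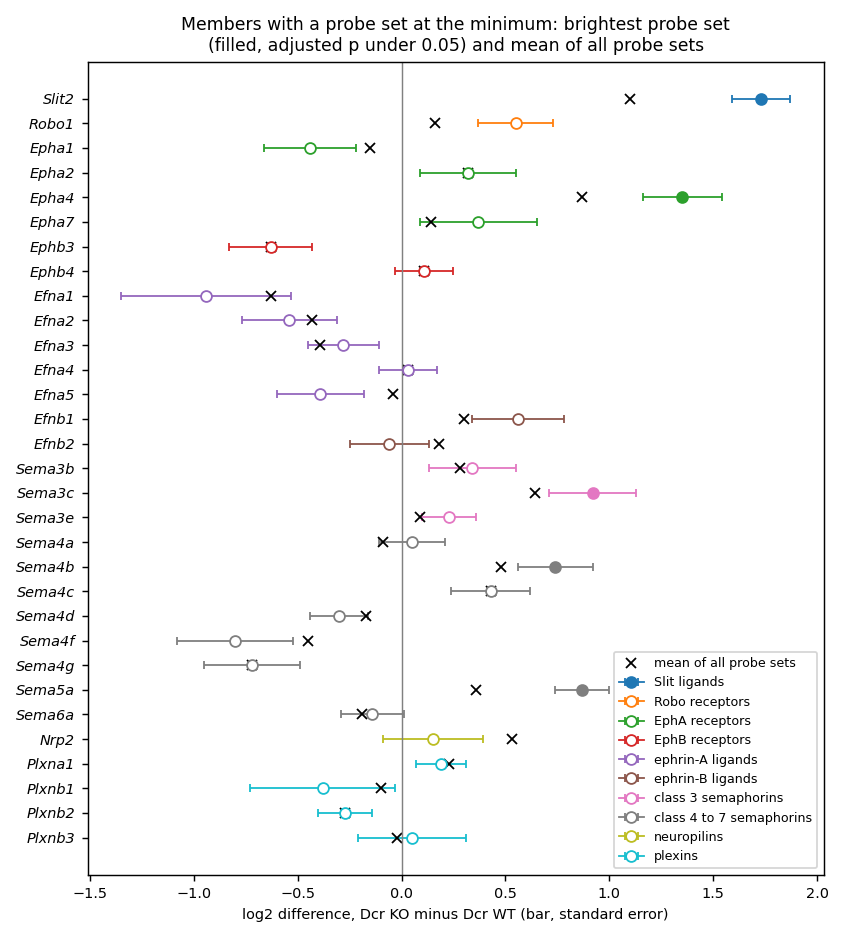
Difference on the log2 scale (Dcr KO minus Dcr WT) for the 31 guidance genes with a probe set at the minimum, for the brightest probe set (circle, with standard error; filled where the adjusted p was under 0.05) and for the mean of all probe sets (cross). Slit2, Epha4, Sema5a, Sema3c and Sema4b are filled, and the crosses of Slit2, Epha4 and Sema5a lie closer to 0 than their circles.

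Slit2, a secreted repellent that binds Robo receptors, had gene means of 4.69, 5.02 and 4.69 on the Dcr KO arrays, against 3.80, 3.77 and 3.53 on the Dcr WT arrays. The groups did not overlap. The Dcr WT mean of 3.70 was under the minimum, so Slit2 reached it through its Dcr KO arrays and had to differ. The log2 difference was 1.10 (standard error 0.13), or 2.14-fold, with an adjusted p of 0.00446 from limma. It passed with each array left out, at adjusted p-values of 0.00968 to 0.0221. Among the 607 genes called higher, 104 had a larger rise.

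The 3 Slit2 probe sets differed in brightness. On the brightest, log2 levels were 7.44, 7.58 and 7.35 on the Dcr KO arrays, against 5.57, 5.96 and 5.66 on the Dcr WT arrays. That probe set had means of 7.46 ± 0.12 in Dcr KO and 5.73 ± 0.20 in Dcr WT (SD, n = 3 each), which is 3.31-fold (adjusted p = 0.00400 over probe sets, limma). The second had 4.72, 5.47 and 4.96 on the Dcr KO arrays, against 4.01, 3.81 and 3.43 on the Dcr WT arrays, also without overlap. Its Dcr WT mean of 3.75 was under the minimum. Its difference of 1.30 had an adjusted p of 0.0259 (limma), which was 0.0479 without Dcr KO replicate 1, 0.0474 without Dcr WT replicate 2 and over the threshold, up to 0.0813, without Dcr KO replicate 2 or 3 or Dcr WT replicate 1 or 3. The third was near background, with 1.90, 2.01 and 1.77 on the Dcr KO arrays, against 1.83, 1.55 and 1.49 on the Dcr WT arrays.

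The other Slit ligands were dim in both groups. Slit3 read 2.93, 2.90 and 3.09 on the Dcr KO arrays, against 3.22, 2.94 and 3.33 on the Dcr WT arrays, and these overlapped. Slit1 stayed between 2.02 and 2.29 on all 6 arrays. Neither was at the minimum, so neither was tested.

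Among the Robo receptors, Robo1 had a single bright probe set out of 3, with log2 levels of 7.87, 7.29 and 7.75 on the Dcr KO arrays, against 6.86, 7.32 and 7.09 on the Dcr WT arrays. Dcr KO replicate 2 lay within the Dcr WT range, and the difference of 0.55 was not called (standard error 0.19, adjusted p = 0.127 over probe sets, limma). Robo2 was under the minimum throughout, at 2.62, 2.85 and 2.90 on the Dcr KO arrays, against 2.05, 2.14 and 1.99 on the Dcr WT arrays. Its groups did not overlap and it passed when no minimum was set (difference 0.73, adjusted p = 0.00949, limma), at levels near background. Robo4, a Robo receptor of endothelial cells, did not exceed 2.54 on any array, and Robo3 did not exceed 2.15.

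Epha4, a receptor tyrosine kinase that binds ephrins of both classes, was higher in Dcr KO on its brightest probe set. Its log2 levels were 7.72, 7.57 and 8.28 on the Dcr KO arrays, against 6.42, 6.70 and 6.40 on the Dcr WT arrays. Every Dcr KO array was above every Dcr WT array. The difference was 1.35 (standard error 0.20), or 2.55-fold, with an adjusted p of 0.0168 over probe sets (limma). It lost the call at 0.0504 without Dcr KO replicate 1, at 0.0584 without Dcr WT replicate 1 and at 0.0674 without Dcr WT replicate 3.

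The next brightest Epha4 probe set had 4.47, 4.69 and 6.09 on the Dcr KO arrays, against 4.29, 3.25 and 3.79 on the Dcr WT arrays. Its Dcr WT mean of 3.78 was under the minimum, so it was admitted through its Dcr KO arrays and had to differ. Dcr KO replicate 3 stood well above the other Dcr KO arrays there, and the difference of 1.31 did not pass (adjusted p = 0.125 over probe sets, limma). Without that array it was 0.80. The other 3 probe sets of Epha4 averaged under the minimum. As a gene mean Epha4 read 4.09, 4.03 and 5.14 on the Dcr KO arrays, against 3.76, 3.34 and 3.56 on the Dcr WT arrays, which kept it just below the minimum.

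Epha2, an Eph receptor of mESCs and epithelia that is also on the study's target list, had 7.85, 7.70 and 8.29 on the Dcr KO arrays, against 8.07, 7.53 and 7.29 on the Dcr WT arrays. These values overlapped, and the difference of 0.32 (standard error 0.23) was not called (adjusted p = 0.365, limma). It was 0.14 without Dcr KO replicate 3, 0.15 without Dcr WT replicate 3 and 0.54 without Dcr WT replicate 1. Epha1 and Epha7 were read through 1 bright probe set each, with differences of -0.44 and 0.37 that did not pass. Without Dcr WT replicate 2 the Epha7 difference was 0.73 (adjusted p = 0.0436 over probe sets, limma). Epha3, Epha5, Epha6, Epha8 and Epha10 did not exceed 2.99 as gene means on any array.

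Ephb3, a receptor for ephrin-B ligands, had 5.33, 5.15 and 4.91 on the Dcr KO arrays, against 5.89, 6.04 and 5.36 on the Dcr WT arrays. The groups were separated by a narrow gap between Dcr KO replicate 1 and Dcr WT replicate 3. The difference of -0.63 (standard error 0.19) missed the threshold (adjusted p = 0.0656, limma) and passed without Dcr WT replicate 3, at -0.83 (adjusted p = 0.0394). Ephb4, the receptor of ephrin-B2 in vessels, had a difference of 0.11 (standard error 0.13) with overlapping arrays. Ephb1 and Ephb6 were dim.

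The tested ephrin-A ligands, which are anchored to the membrane by GPI, did not pass. Efna3 had 4.55, 4.42 and 4.16 on the Dcr KO arrays, against 4.67, 4.91 and 4.71 on the Dcr WT arrays, for a difference of -0.39 (standard error 0.13, adjusted p = 0.0875, limma). Efna2 had 4.83, 4.58 and 4.39 on the Dcr KO arrays, against 4.79, 5.17 and 5.12 on the Dcr WT arrays, for a difference of -0.43 (standard error 0.15, adjusted p = 0.0976). Efna3 separated the groups, while Dcr KO replicate 1 of Efna2 overlapped Dcr WT replicate 1. Efna4 and Efna5 had differences of 0.03 and -0.04. Efna1 was untested as a gene, and its brighter probe set spread widely, at 4.39, 3.59 and 2.73 on the Dcr KO arrays, against 4.13, 5.06 and 4.34 on the Dcr WT arrays.

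The transmembrane ephrin-B ligands also overlapped between the groups. Efnb1 had 4.31, 4.24 and 4.09 on the Dcr KO arrays, against 3.77, 4.36 and 3.61 on the Dcr WT arrays, with Dcr WT replicate 2 as the highest of all 6. Its difference of 0.30 (standard error 0.19) was not called (adjusted p = 0.316, limma), and without that array it was 0.52 (adjusted p = 0.0478). The Dcr WT mean of Efnb1, 3.91, was under the minimum, so it too was admitted through its Dcr KO arrays. Efnb2 had a gene-mean difference of 0.18 (standard error 0.19, adjusted p = 0.536), and its brightest probe set had a difference of -0.06. Efnb3 did not exceed 3.26 on any array.

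**Figure D3:**
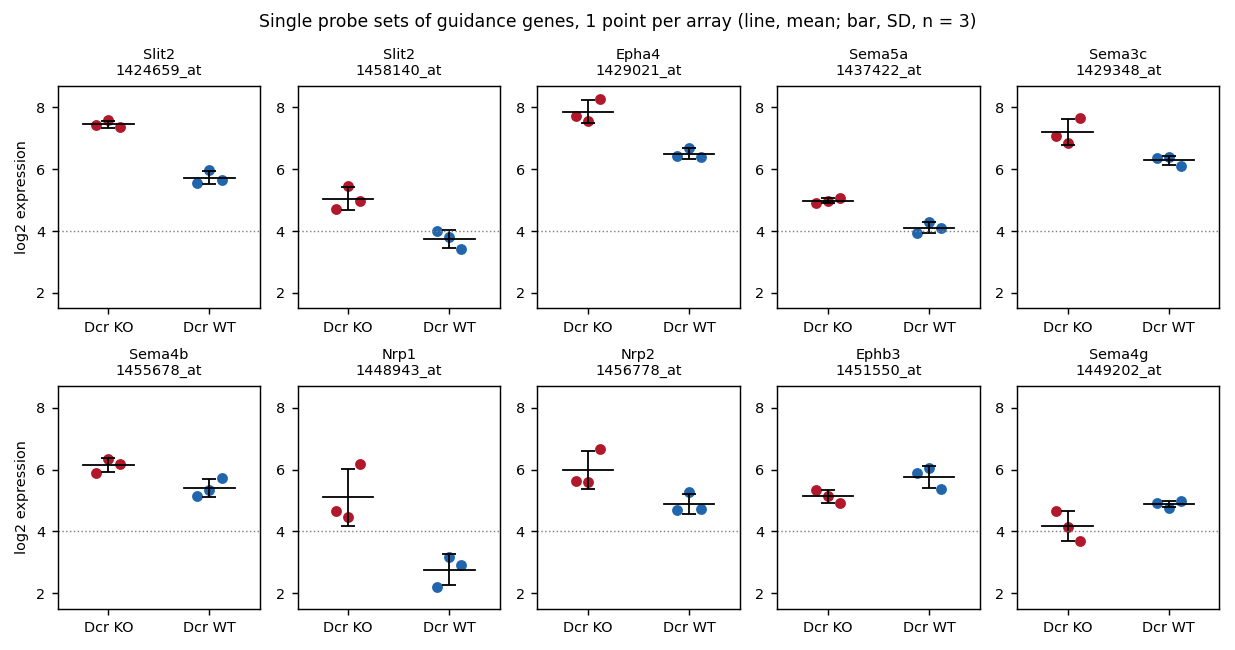
Log2 expression of 10 single probe sets of guidance genes on each array, Dcr KO left and Dcr WT right (points, 1 per array; line, mean; bars, SD, n = 3; dotted line, the minimum of 4). The Dcr KO points lie above all Dcr WT points in the panels of Slit2, Epha4, Sema5a, Sema3c, Sema4b, Nrp1 and Nrp2, and below them in those of Ephb3 and Sema4g. The Nrp2 panel shows its tested probe set with the largest difference. Its brightest probe set differed by 0.15 with overlapping arrays. The other panels show the brightest probe set of a gene, or the 2 brightest of Slit2.

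Among the secreted class 3 semaphorins, Sema3c had gene means of 4.54, 4.64 and 5.40 on the Dcr KO arrays, against 4.38, 4.25 and 4.04 on the Dcr WT arrays. The groups did not overlap, and Dcr KO replicate 3 was the highest. The difference of 0.64 (standard error 0.22) was not called (adjusted p = 0.0959, limma), and without Dcr KO replicate 3 it was 0.37. Its bright probe set had 7.09, 6.84 and 7.67 on the Dcr KO arrays, against 6.37, 6.38 and 6.10 on the Dcr WT arrays, again without overlap. That difference was 0.92, or 1.89-fold. Its adjusted p was 0.0539 over all probe sets, and 0.0286 where each gene had only its brightest probe set (limma).

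Sema3e, a ligand of plexin D1, was tested on 4 probe sets that disagreed in direction, with differences from -0.38 to 0.40. Its gene means were 9.19, 9.16 and 9.01 on the Dcr KO arrays, against 9.23, 8.73 and 9.11 on the Dcr WT arrays, for a difference of 0.09 (standard error 0.15, adjusted p = 0.688, limma). Plxnd1, the receptor, had a single dim probe set that did not exceed 3.62. Sema3a, Sema3b, Sema3d, Sema3f and Sema3g were under the minimum as gene means.

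Semaphorins of classes 4 to 7 are membrane-bound, and their measured members differed in direction. Sema5a had 4.91, 4.98 and 5.06 on the Dcr KO arrays for its brightest probe set, against 3.93, 4.31 and 4.11 on the Dcr WT arrays. The groups did not overlap, the difference was 0.87 (standard error 0.14), or 1.82-fold, and the adjusted p was 0.0168 over probe sets (limma). Leaving out any array other than Dcr WT replicate 2 ended the call, at adjusted p-values of 0.0530, 0.0758 and 0.0521 without Dcr KO replicates 1, 2 and 3, and 0.0535 and 0.0614 without Dcr WT replicates 1 and 3. The other 3 probe sets of Sema5a were under the minimum, and the brightest among them had 3.30, 2.68 and 3.30 on the Dcr KO arrays, against 2.17, 2.15 and 2.25 on the Dcr WT arrays.

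Sema4b, on the study's target list, had 5.89, 6.35 and 6.17 on the Dcr KO arrays for its bright probe set, against 5.13, 5.35 and 5.72 on the Dcr WT arrays. The groups were separate, and the difference was 0.74 (standard error 0.19), or 1.67-fold. Its adjusted p was 0.0631 over all probe sets and 0.0350 where each gene had only its brightest probe set (limma). Sema4g had lower values in Dcr KO, with 4.66, 4.13 and 3.70 on the Dcr KO arrays, against 4.92, 4.77 and 4.97 on the Dcr WT arrays. Its arrays did not overlap, and its difference of -0.72 (standard error 0.22) missed the threshold (adjusted p = 0.0670, limma). Without Dcr KO replicate 1 it was -0.97 (adjusted p = 0.0210).

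Sema4f was untested as a gene, and its bright probe set had 5.06, 4.63 and 3.88 on the Dcr KO arrays, against 5.16, 5.55 and 5.25 on the Dcr WT arrays. The difference of -0.80 was not called (standard error 0.29), and without Dcr KO replicate 3 it was -0.48. Sema4c had a difference of 0.43 (standard error 0.19, adjusted p = 0.160, limma) and Sema4d one of -0.17 (standard error 0.12, adjusted p = 0.334). Both overlapped between the groups. Sema5b, Sema6b, Sema6c, Sema6d and Sema7a did not exceed 3.28 as gene means.

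The neuropilins are co-receptors for class 3 semaphorins and for VEGF. Nrp1 was dim as a gene mean, with 3.17, 3.25 and 4.12 on the Dcr KO arrays, against 2.03, 2.54 and 2.21 on the Dcr WT arrays. The brightest of its 4 probe sets had 4.66, 4.46 and 6.17 on the Dcr KO arrays, against 2.21, 3.18 and 2.90 on the Dcr WT arrays. All Dcr KO arrays were above the minimum there and all Dcr WT arrays below it, and its mean over the 6 arrays fell just short. Where a mean at the minimum in either group was enough, the difference was 2.33 (standard error 0.48, adjusted p = 0.0348 over probe sets, limma). A probe set admitted through its higher group had to differ, so this value is a description of Nrp1 and not a call.

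Nrp2, on the study's target list, had 5.42, 5.43 and 6.26 on the Dcr KO arrays, against 5.10, 5.46 and 4.98 on the Dcr WT arrays. Dcr KO replicate 3 alone stood apart, and the difference of 0.53 (standard error 0.24) was not called (adjusted p = 0.177, limma). Without that array it was 0.25. Its 3 tested probe sets had differences of 1.09, 0.51 and 0.15, and only the first separated the groups, with 5.64, 5.60 and 6.68 on the Dcr KO arrays, against 4.68, 5.26 and 4.71 on the Dcr WT arrays. It did not pass (adjusted p = 0.0844 over probe sets, limma).

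Dcr KO replicate 3 was the highest Dcr KO array for 17 of the 39 tested guidance probe sets, against 7010 of all 18789. Among the 11 that were at least 0.5 higher in Dcr KO it was so for 6. The median of the 19 tested genes relative to the Dcr WT mean was 0.05, -0.03 and 0.16 on Dcr KO replicates 1, 2 and 3, and 0.10, 0.07 and -0.20 on Dcr WT replicates 1, 2 and 3. These medians spanned a wider range among the Dcr WT arrays than among the Dcr KO arrays.

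The plexins, which are the signalling receptors of semaphorins, overlapped between the groups for each of the 3 that were tested. Plxnb2 had 8.09, 7.97 and 7.95 on the Dcr KO arrays, against 8.39, 8.37 and 8.05 on the Dcr WT arrays, for a difference of -0.27 (standard error 0.12, adjusted p = 0.175, limma). Plxna1 and Plxnb1 had differences of 0.23 (standard error 0.15, adjusted p = 0.330) and -0.10 (standard error 0.23, adjusted p = 0.790). Plxna2, Plxna3, Plxna4, Plxnb3, Plxnc1 and Plxnd1 did not reach the minimum as gene means, nor did Plxna4os1.

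The 5 guidance genes on the study's target list included 3 that were tested as gene means, Epha2, Nrp2 and Sema3c. Their median difference was 0.53, and 0 of them passed, with Sema3c alone under 0.05 before adjustment (limma). The list was drawn up partly on these arrays from genes that rose, so a positive median was built in. On their brightest probe sets Epha4, Sema3c and Sema4b were called higher, while Epha2 and Nrp2 were not, against 7.71% of all genes called higher. The same limit holds for these calls. Slit2 and Sema5a, which were also called there, are not on that list.

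Beyond the ligands and receptors, 77 of 81 listed genes of netrin signalling, co-receptors and intracellular effectors had a probe set with a single symbol, and 42 of them were tested. Dpysl3, Sdc2 and Mmp14 were called higher in Dcr KO, against 6.91% of all genes. Of the rest 0 were called lower, against 6.42% of all genes, and 39 were not called (limma). At an unadjusted p under 0.05, 11 of the 42 were higher and 1 was lower, against 14.7% and 17.3% of all genes. The study's target list, drawn up partly on these arrays, holds 12 of the 42, and 8 of those 12 were among the 11. The median was 0.13, with 30 positive and 12 negative differences, and 11 of the 30 positive ones were of genes on that list. All Dcr KO arrays lay above for 13 of the 42, against 17.7% of all genes, and below for 2, against 21.2%. Of those 13, 9 are on the target list, so these counts are not independent evidence of a shift. Leaving out 1 array left only Dpysl3 called without Dcr KO replicate 1, 2 or 3 or Dcr WT replicate 3, and 2 genes without Dcr WT replicate 1 or 2.

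Dpysl3 encodes CRMP4, a collapsin response mediator of the family that relays semaphorin signals to the cytoskeleton. It had 8.63, 8.62 and 8.82 on the Dcr KO arrays, against 7.27, 7.51 and 7.63 on the Dcr WT arrays. The groups were well separated, and the difference of 1.22 (standard error 0.13) was 2.33-fold (adjusted p = 0.00253, limma). It stayed past the threshold with each array left out, at adjusted p-values up to 0.0134.

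Sdc2, a heparan sulphate proteoglycan, had 5.77, 5.72 and 6.11 on the Dcr KO arrays, against 5.35, 5.34 and 5.34 on the Dcr WT arrays. Its difference was 0.52 (adjusted p = 0.0338, limma) and lost the call with any 1 array left out, at adjusted p-values of 0.0561 to 0.0942. Mmp14, a membrane metalloproteinase, had 6.64, 6.55 and 6.71 on the Dcr KO arrays, against 6.32, 6.05 and 6.01 on the Dcr WT arrays. Its difference of 0.51 (adjusted p = 0.0311) kept the call only without Dcr WT replicate 1 (adjusted p = 0.0333), and was at up to 0.0928 without any of the other 5 arrays. It was also lost on the brightest probe set, at 0.35 (adjusted p = 0.180), and on the mean of probe sets at the minimum, at 0.55 (adjusted p = 0.0576). Both separated the groups, and both are on the study's target list.

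Netrins are secreted cues that attract through Dcc and repel through Unc5 receptors. Of 15 genes of the netrin system 3 were tested and 0 were called, with 1 higher at an unadjusted p under 0.05 (limma). Ntn1, the ligand, had 4.37, 4.45 and 5.14 on the Dcr KO arrays, against 3.90, 4.29 and 3.95 on the Dcr WT arrays, for a difference of 0.60 (standard error 0.22, adjusted p = 0.101). The groups did not overlap, and Dcr KO replicate 3 was again the highest. Neo1, a netrin receptor, differed by 0.22 and Unc5b by -0.07.

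**Figure D4:**
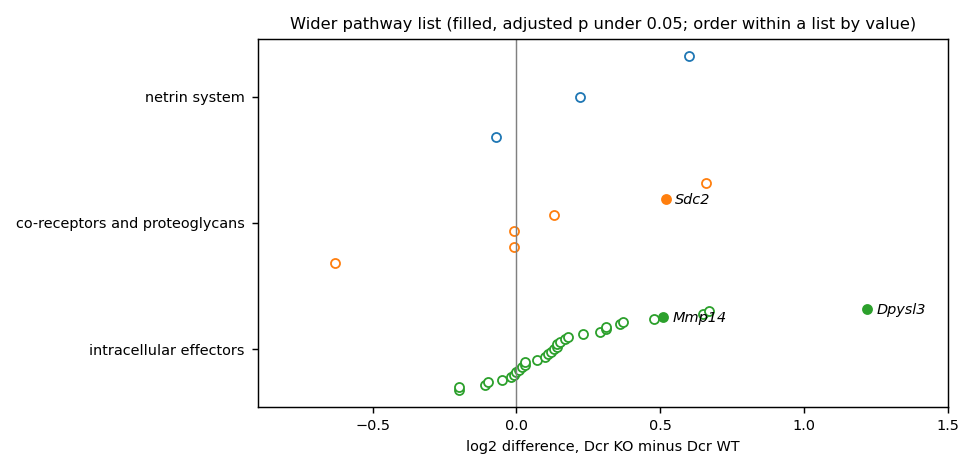
Difference on the log2 scale (Dcr KO minus Dcr WT) for the 42 tested genes of the wider pathway list, 1 point per gene in 3 lists (filled where the adjusted p was under 0.05). Dpysl3 at 1.22, Sdc2 at 0.52 and Mmp14 at 0.51 are filled, and 30 of the 42 points lie right of 0. Of those 30, 11 are on the study's target list, which was drawn up partly on these arrays.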

How the data were processed

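For each of 6 arrays the authors deposited a log2 value per probe set (45037 in all), made with GCRMA 2.20.0 in R 2.11.1 as far as the submitters' processing notes tell. A figure legend of the study says that these arrays were normalized jointly with those of chronic deletion lines for that figure; no source says whether the deposited values are from that step. Arrays have no read depth, so their number limits precision, and array medians lay between 2.96 and 3.01. The platform annotation gave 34945 probe sets 1 symbol, 932 several and 9160 none; the last 2 kinds were left out. Of the first, 34741 were found in RefSeq (GRCm38.p6), and 0 symbols changed.

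Groups were compared in R 4.3.3 by the lmFit and eBayes functions of limma 3.58.1, tested on simulated data. Tables were made in Python 3.11.15 with pandas 2.3.3. Alternatives covered the minimum, the combination of probe sets, the scaling, the prior, a replicate block and each array left out. Members, lists and the naming rule were chosen with earlier results of these data known. Named genes were those called, those whose groups did not overlap, those on the study's target list, the 2 tested members of each family with the smallest adjusted p, and pathway genes past the threshold. Other members were named after their values were seen.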

Additional observations from a re-analysis of the deposited data

How the results depend on the processing

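Over 751 alternative values of 57 single results, 711 stayed on their side of the threshold, 30 lost the call, 10 gained it and 0 called values reversed; some uncalled differences near 0, such as that of Efnb2, changed sign. The cause was not tested for any change below beyond what the setting itself fixes. Guidance genes called higher in Dcr KO numbered 1 of 19. They numbered 4 of 60 with no minimum (Slit2, Robo2, Nrp1 and Sema4b) and 0 of 9 with a minimum of 5 (Slit2 is then untested). With the minimum in either group they numbered 2 of 22, Slit2 and Sema4b. Both had Dcr WT means under the minimum and were admitted through Dcr KO, so they had to differ. The brightest probe set and the mean of probe sets at the minimum each gave 5 of 31. With 1 array left out, 1 to 2 guidance genes were called higher and 0 to 1 lower. Genes whose arrays did not overlap numbered 5 of 19, and 8 of 31 on the brightest probe set. Of all genes, 17.7% lay above and 21.2% below in the first fit, and 17.7% above and 22.9% below in the second. Such guidance genes numbered 18 of 60 with no minimum, 1 of 9 with a minimum of 5 and 8 of 31 on probe sets at the minimum. With 1 array left out they numbered 6 to 10, where 5 arrays overlap less easily. No share of all genes was at hand for these settings, so the counts are not read as a result. The median was 0.04 to 0.21 with 1 array left out. Guidance probe sets called higher numbered 4 of 39, against 4.69% of all probe sets. They numbered 8 of 137 with no minimum and 1 to 7 with 1 array left out, where that share was not at hand. With no minimum 1 was called lower, of Epha3. The wider list had 3 of 42 called higher, against 6.91% of all genes. It had 5 of 77 with no minimum and 1 to 2 with 1 array left out. On the brightest probe set it had 5 of 52 (Dpysl3 and Sdc2 but not Mmp14 among them), against 7.71% of all genes. Sdc2 and Arhgef12 among those 5 are on the study's target list, drawn up partly on these arrays. With no minimum 1 was called lower, Mical3, and 1, also Mical3, with the minimum in either group. Mical3 was admitted in the latter only through Dcr WT (mean 4.27, against 3.59 in Dcr KO), so it had to differ. Of all 8782 genes tested, 1171 were called in either direction, and 357 to 783 with 1 array left out. Called genes numbered 1297 of 18193 with no minimum, 978 of 7259 with a minimum of 5 and 1315 of 9010 with the minimum in either group. They numbered 1526 of 9702 on the brightest probe set and 1401 of 9702 on probe sets at the minimum. Arrays with the same replicate number shared little deviation from their group means (r = -0.35, 0.04 and 0.17). Dcr KO replicates 1, 3 and 2 gave 0.45, 0.35 and 0.07 with Dcr WT replicates 2, 1 and 3. With 3 arrays per group these values cannot show which arrays, if any, were made together, and the main fit used no pairing. With a replicate block 597 genes were called, Slit2 kept an adjusted p of 0.0152, 1 guidance gene was called lower (Ephb3, adjusted p = 0.0471), 1 guidance probe set was called higher (Slit2) and 1 gene of the wider list was called higher (Dpysl3). Levels near background limit what can be said of the 41 untested guidance genes.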

Other observations

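On its brightest probe set Nrcam, a neuronal adhesion molecule that serves as a co-receptor with neuropilins, was 1.53 higher in Dcr KO on the log2 scale (adjusted p = 0.0185, limma over 9702 genes). Adam10, a protease that cleaves ephrins, was 0.50 higher (adjusted p = 0.0246). Neither was called as a gene mean over all probe sets with the minimum of 4. With no minimum, Ntn4, a netrin of basement membranes, was 1.06 higher (adjusted p = 0.00591, limma over 18193 genes) at a level under the minimum. These genes were named after their values were seen.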
